A study of Homo sapiens with 6 samples.

Results

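The 50 genes described here encode the machinery of mitosis: cyclins and CDK1, mitotic kinases, spindle checkpoint and kinetochore proteins, spindle motors, and the proteins of chromosome separation and cytokinesis. They were chosen by symbol, as the rows of the deposited expression table whose gene name, or one of several joined names, was on the list. All 50 had a row among the 18268 rows of the table. Of these rows, 3 were shared with other genes (BUB1B;PAK6;BUB1B-PAK6, CENPA;SLC35F6 and PRC1;VPS33B), and the parts of such a row could not be separated. Total RNA had been sequenced from MIA PaCa-2 cells, a long-established line of human pancreatic cancer, with 3 libraries from cells labelled as a LINC00901 knockout (KO 1 to 3) and 3 from cells labelled vector control, or LCV2 (vector control 1 to 3). LINC00901 is a long non-coding RNA gene. All cells were grown in DMEM with 10% fetal bovine serum and 2.5% horse serum. The labels do not say how the knockout was made, whether the cells are 1 clone or a pool, or whether the libraries came from separate cultures, so p-values measure the spread between these libraries, which may be technical.

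As background, a cell enters mitosis when cyclin B bound to CDK1 becomes active, and leaves it when the anaphase-promoting complex marks cyclin B and securin for destruction. Transcripts of most of these genes are low in G1 and accumulate through S and G2 phase, so in growing cells their level follows the share of cells that are about to divide. Their promoters are known for a shared layout, with CCAAT boxes, which bind NF-Y, upstream of a cell cycle homology region (CHR), which is bound by MuvB complexes that repress the genes in resting cells and, with B-MYB and FOXM1, activate them in cycling cells. A lower level in bulk RNA can mean fewer dividing cells or less transcript per cell, and the 2 cannot be told apart here.

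The promoters of both B-type cyclin genes, of the kinase gene PLK1 and of the anaphase activator gene CDC20 are printed as examples. Levels of these members are given further on, and not all of the runs held both sets of letters searched for. The runs are RefSeq sequence of build GRCh38.p14, plus strand, from 250 bases before to 30 bases after the transcript start, at chr15:59104896-59105175 for CCNB2, chr16:23678639-23678918 for PLK1, chr1:43358731-43359010 for CDC20 and chr5:69166900-69167179 for CCNB1. Capitals mark CCAAT, and TTTGAA or TTCGAA (the CHR letters), on either strand.
CCNB2: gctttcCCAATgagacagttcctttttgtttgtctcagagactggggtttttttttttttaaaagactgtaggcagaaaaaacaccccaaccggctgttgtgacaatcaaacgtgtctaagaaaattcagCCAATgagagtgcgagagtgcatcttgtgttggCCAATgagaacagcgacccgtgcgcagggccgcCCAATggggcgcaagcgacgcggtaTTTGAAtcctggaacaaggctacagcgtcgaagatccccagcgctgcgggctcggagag
PLK1: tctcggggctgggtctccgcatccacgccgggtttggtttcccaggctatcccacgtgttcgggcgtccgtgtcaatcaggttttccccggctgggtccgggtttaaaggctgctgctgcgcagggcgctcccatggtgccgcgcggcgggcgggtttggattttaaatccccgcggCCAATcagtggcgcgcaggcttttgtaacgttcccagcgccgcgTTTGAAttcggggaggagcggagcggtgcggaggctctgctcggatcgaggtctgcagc
CDC20: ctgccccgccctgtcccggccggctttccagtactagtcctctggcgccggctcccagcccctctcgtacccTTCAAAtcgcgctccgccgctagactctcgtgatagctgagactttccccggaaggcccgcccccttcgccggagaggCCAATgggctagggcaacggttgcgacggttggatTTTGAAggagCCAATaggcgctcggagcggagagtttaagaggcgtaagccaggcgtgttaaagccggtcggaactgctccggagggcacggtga
CCNB1: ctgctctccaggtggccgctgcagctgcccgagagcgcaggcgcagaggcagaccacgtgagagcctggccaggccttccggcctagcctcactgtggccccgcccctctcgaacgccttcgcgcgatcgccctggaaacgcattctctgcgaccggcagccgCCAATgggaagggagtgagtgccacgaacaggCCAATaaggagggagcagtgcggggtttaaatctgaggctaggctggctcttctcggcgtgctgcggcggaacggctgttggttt

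Positions are counted from the transcript start, with minus signs before it. In CCNB2 the CHR letters lay at -29 and CCAAT at -54, -87, -120 and -244. PLK1 had CHR letters at the same distance, -29, and CCAAT at -73. CDC20 held CHR letters at -65 and -178 and CCAAT at -55 and -100, so its CCAAT at -55 lay downstream of both. The CCNB1 run held CCAAT at -55 and -87 and neither set of CHR letters. Other spellings of the CHR were not searched for, so a run without these letters may still hold one.

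Of the 50 members, 42 had a promoter window (250 bases before to 50 after the start) in the RefSeq table. AURKA, BIRC5, BUB3, FOXM1, RACGAP1, TPX2, TTK and UBE2C had no entry. The CHR letters, TTTGAA or TTCGAA on either strand, were present in 33 of the 42 (78.6%), against 19.5% of all 27305 symbols with a window. CCAAT on either strand was present in 36 (85.7%), against 39.7% of all symbols, and both were present in 29 (69.0%), against 7.85%. Matches of the 2 motifs may share an end base, and a symbol with several windows counted once if any window held the letters. Counted by window, 69.2% of the 52 member windows held CHR letters, against 16.4% of all 35116. A match is a description of the letters and was not tested as a binding site.

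Values are FPKM, fragments scaled by the authors to transcript length and library size. Their sum ran from 123107 in KO 1 to 134389 in vector control 3. Depth could not be read from them. LINC00901 had 0 rows, so the knockout was not checked, and which group is which comes from the labels alone. Of the epithelial markers checked, the keratin genes KRT18 and KRT19 and the shared row KRT8;KRT78 were present (at least 7.23 FPKM in every library). EPCAM, CDH1 and KRT7 were at most 0.14 FPKM. Of the leukocyte markers, PTPRC and CD3E were listed at 0 in every library. LYZ was called higher in the KO libraries. It was at 0 throughout the vector controls and at 1.2 to 1.83 FPKM in the KO libraries, through which alone it passed the filter. CD14 was at most 0.68 FPKM in the vector controls and at 0 in the KO libraries, and the shared row CD68;EIF4A1;SENP3 stood between 35.13 and 51.58 FPKM without a call. Of the fibroblast markers, COL1A2 stood between 24.72 and 56.18 FPKM, COL3A1 between 16.46 and 62.02 and COL1A1 between 0.96 and 3.95. DCN was at 0 in every library, and LUM and PDGFRB were at most 0.17 FPKM. Of 3 tested epithelial and 3 tested fibroblast markers 0 were called by the test described below (1.35% of all rows). All 3 epithelial rows had a log2 fold change below 0, with a median of -0.92, and of the fibroblast rows 2 were above 0 and 1 below. Of 4 endothelial markers 0 passed the filter. All 50 members passed the filter of 1 FPKM in at least 3 of the 6 libraries, which 9624 rows passed.

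The DNA topoisomerase gene TOP2A, which untangles sister chromatids, was the highest, and SGO1, which protects centromeric cohesin, was the lowest. TOP2A stood at 187.27, 182.06 and 176.90 FPKM in vector control 1 to 3 and at 110.25, 193.28 and 204.36 in KO 1 to 3. SGO1 measured 3.12, 1.16 and 1.12 FPKM in vector control 1 to 3, against 1.88, 3.01 and 2.56 in KO 1 to 3. In both genes 1 library of a group stood apart from the other 2. In TOP2A it was KO 1, below everything else, and in SGO1 it was vector control 1, above the other vector controls. Together the 50 genes made up 1.26%, 1.10% and 1.10% of the FPKM sum in vector control 1 to 3, and 0.838%, 1.26% and 1.36% in KO 1 to 3.

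Between the groups, no member passed the test. The comparison was limma on log2(FPKM + 1), KO against vector control, two-sided. The threshold for a call was 0.05 after Benjamini-Hochberg adjustment over all 9624 rows. Of the 50 members, 0 were called, against 1.35% of all rows (130). The shares of all rows called were 0.509% higher and 0.842% lower in the KO libraries. The lowest adjusted p was 0.206, and 2 members, TTK and UBE2C, had an unadjusted limma p below 0.05, against 17.5% of all rows. The median log2 fold change of the members was 0.02, with 28 above 0 and 22 below, beside a median of 0.08 for all rows. After each library was scaled to a common median the members' median was -0.07, and after quantile normalization it was 0.08. The standard error of a member's log2 fold change had a median of 0.27, against 0.20 for all rows, and the 95% interval reached 0.63 to either side at the median.

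**Figure D1:**
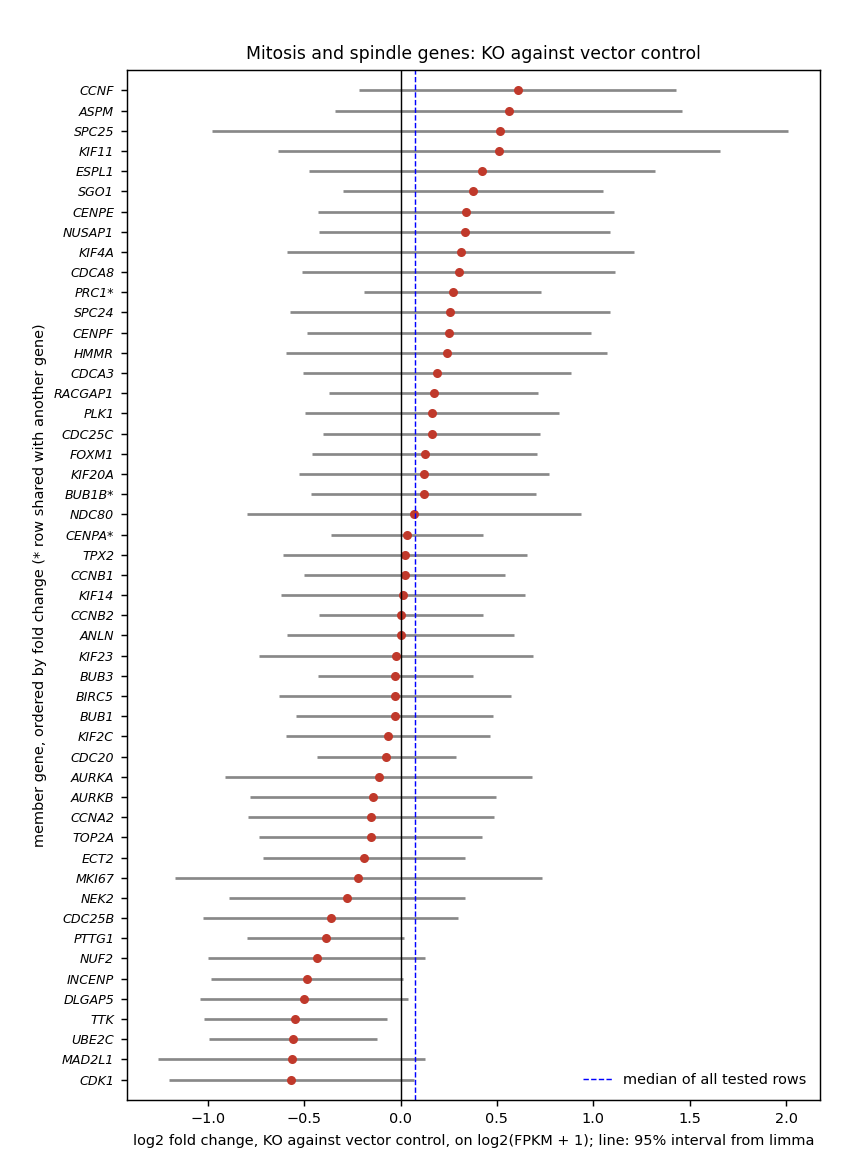
Log2 fold change of each of the 50 mitosis and spindle genes (points), KO against vector control on the log2(FPKM + 1) scale, with the 95% limma interval (lines); the vertical axis lists the genes by fold change. The points run from -0.57 (CDK1) to 0.61 (CCNF), and the intervals of TTK and UBE2C alone lie wholly to one side of 0.

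The limma result depended on how single libraries were weighted. When limma estimated a weight for each library, vector control 1 received 0.151 and KO 1 received 0.333, while the other 4 libraries received between 1.46 and 3.0. With those weights in a robust limma fit 21 of the 50 members were called, against 41.8% of all rows. Of them, 18 were higher and 3 lower in the KO libraries, against 27% and 14.8% of all rows. The same weights without the robust option gave 19 called members (41.7% of all rows), and the robust option without weights gave 0 (1.29%), in fits added after the data were seen. Leaving out any single library with equal weights gave 0 called members in each of the 6 fits, against 0.26% to 13.8% of all rows. The lowest limma adjusted p among the members came closest to the threshold without vector control 1 (0.0522).

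Gene by gene, the libraries of a group often lay far apart. In 49 of the 50 members the spread within a group was wider than the difference of the group means, against 84.6% of all rows, and UBE2C was the exception. The spread is the wider of the group ranges, and a range and a difference of means are unlike measures. The count therefore does not rank variation within the groups against that between them. KO 1 was the lowest of the 3 KO libraries in 49 members, against 41.8% of all rows, and CDC25B was the exception. KO 1 was the highest KO library in 0 members (38.7% of all rows). It was the lowest of all 6 libraries in 40 members, against 15.5% of all rows. Vector control 1 was the highest of the 3 vector controls in 38 members, against 49.9% of all rows, and the lowest in 7, against 38.6%. Both held at once, KO 1 lowest and vector control 1 highest, in 38 members (27.4% of all rows). KO 1 lay below both vector control 2 and 3 in 42 members (35% of all rows), while KO 2 and 3 both lay above them in 39 (44.7%). Vector control 1 lay above KO 2 and 3 in 19 members (37.5% of all rows) and below both in 20 (44.4%).

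**Figure D2:**
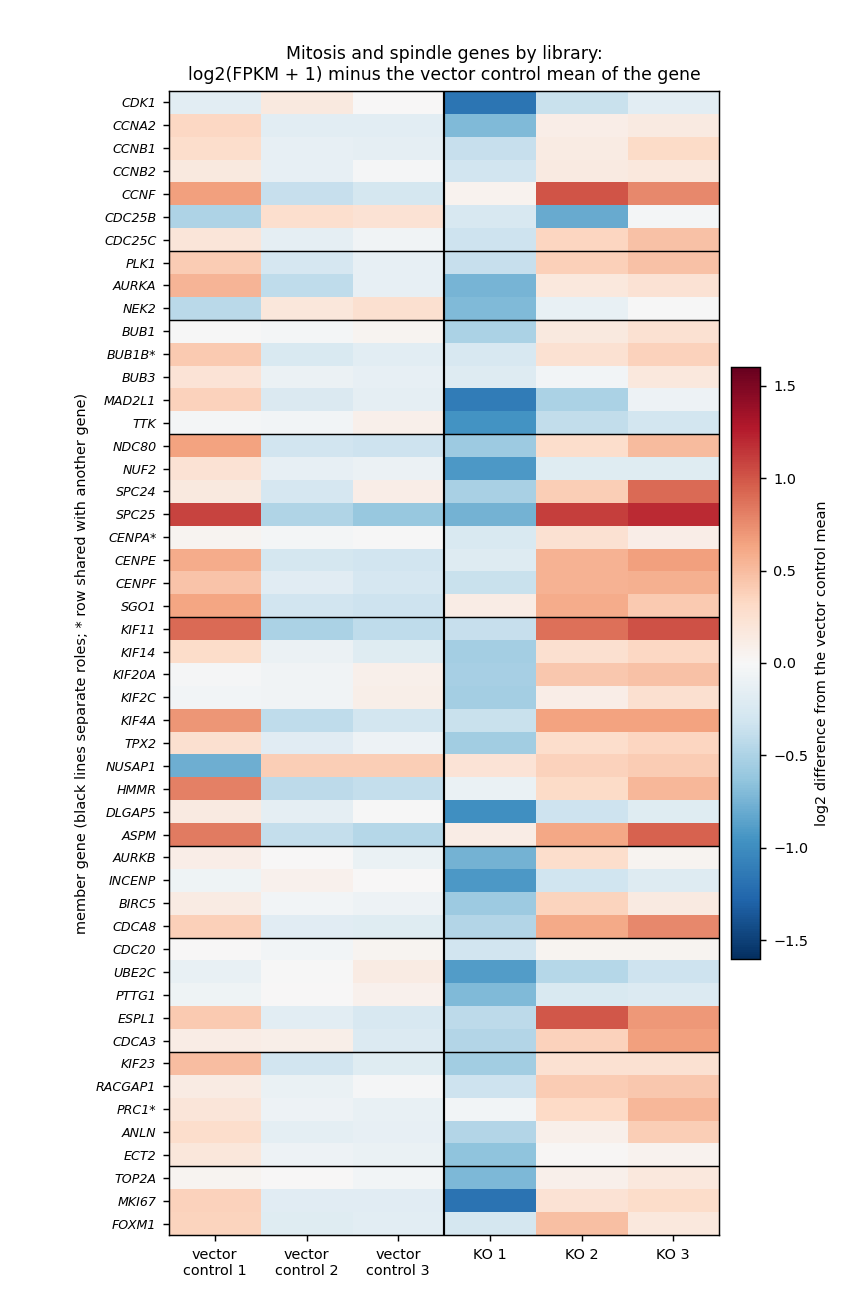
Each row is 1 of the 50 genes, grouped by role, and each column 1 library; colour gives log2(FPKM + 1) minus the gene's vector control mean. KO 1 is blue in most rows, being the lowest of all 6 libraries in 40 genes, and the column of vector control 1 is red where those of KO 2 and KO 3 are red in genes such as SPC25 and KIF11.

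Vector control 2 and 3 lay close together, with a median absolute difference of 0.08 on the log2(FPKM + 1) scale over the members (0.11 over all rows). KO 2 and 3 differed by 0.12 (0.14 over all rows). KO 1 lay 0.73 from KO 2 and 0.80 from KO 3, where all rows gave 0.27 and 0.26. Vector control 1 lay 0.43 from vector control 2 and 0.42 from vector control 3, but 0.20 from KO 2 and 0.15 from KO 3. KO 1 likewise lay nearer to vector control 2 and 3 (0.35 and 0.36) than to the other KO libraries. Over all rows vector control 1 was also nearer to KO 2 and 3 (0.29 and 0.27) than to vector control 2 and 3 (0.37 and 0.38). KO 1 over all rows was instead nearer to KO 2 and 3 (0.27 and 0.26) than to vector control 2 and 3 (0.29 and 0.31). The mean of the members relative to the control mean was 0.25 in vector control 1, -0.14 and -0.11 in vector control 2 and 3, -0.50 in KO 1, and 0.22 and 0.31 in KO 2 and 3.

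**Figure D3:**
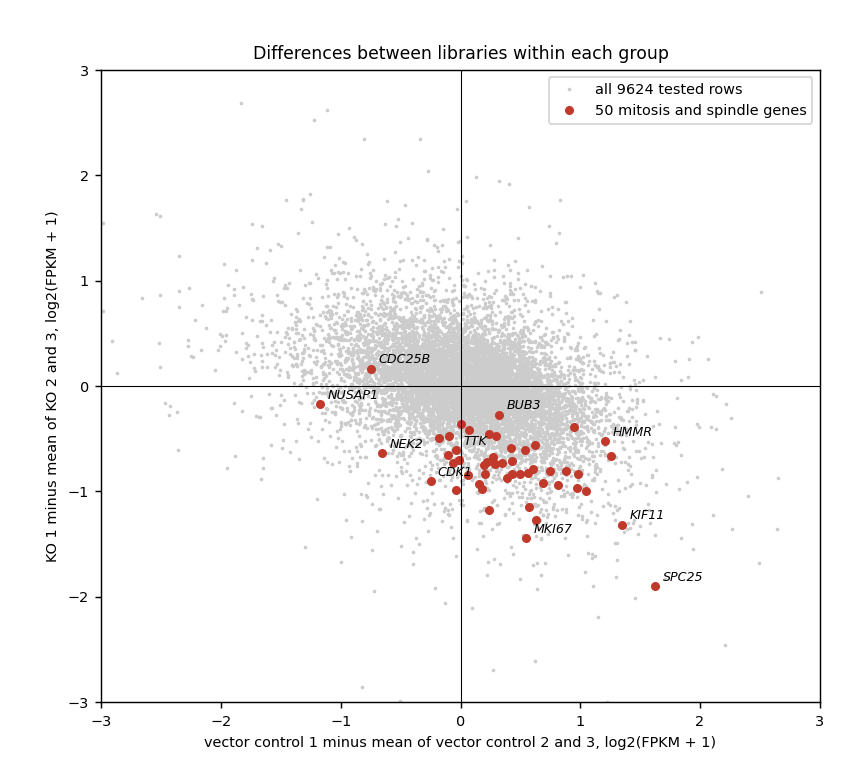
For each tested row, vector control 1 minus the mean of vector control 2 and 3 (horizontal) against KO 1 minus the mean of KO 2 and 3 (vertical), both on the log2(FPKM + 1) scale; grey points are all 9624 rows, of which 14 lie beyond the axes, and red points the 50 mitosis genes. All red points except CDC25B (0.17) lie below 0 on the vertical axis, mostly to the right. SPC25 and KIF11 lie farthest out, and NUSAP1, CDC25B and NEK2 are on the left.

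The cyclins, their kinase and its activating phosphatases showed the pattern with some exceptions. CDK1, the catalytic subunit that drives entry into mitosis, measured 16.01, 20.32 and 18.18 FPKM in vector control 1 to 3, against 7.50, 13.92 and 15.91 in KO 1 to 3. The groups did not overlap, by a margin of 15.91 against 16.01, and KO 1 was far below the others. The log2 fold change of CDK1 was -0.57 (SE 0.27, limma adjusted p = 0.329). CCNB1, whose product is the main mitotic cyclin, measured 90.63, 67.89 and 67.21 FPKM in vector control 1 to 3, against 57.36, 81.62 and 92.32 in KO 1 to 3. Here vector control 1 lay beside KO 3 at the top and the fold change was near 0 (0.02, SE 0.22, adjusted p = 0.973). CCNB2, the second B-type cyclin gene, also had KO 1 lowest and KO 3 highest, with a narrower range, from 25.39 FPKM in KO 1 to 35.45 in KO 3. CCNA2, which acts in S phase and early mitosis, ran from 27.16 FPKM in KO 1 to 56.91 in vector control 1.

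CCNF, an F-box protein of an SCF ubiquitin ligase, had the highest fold change of the members. It measured 11.16, 4.98 and 5.33 FPKM in vector control 1 to 3, against 7.00, 14.45 and 12.20 in KO 1 to 3 (log2 fold change 0.61, SE 0.35, adjusted p = 0.409). Vector control 1 overlapped the KO range, while vector control 2 and 3 lay below all 3 KO libraries. The phosphatase gene CDC25B, which removes inhibitory phosphate from CDK1, went another way. It measured 43.26, 74.26 and 72.33 FPKM in vector control 1 to 3, against 51.50, 34.79 and 60.17 in KO 1 to 3 (-0.36, SE 0.28, adjusted p = 0.549). It was the member in which KO 1 was not the lowest of its group, and vector control 1 lay below vector control 2 and 3. Its relative CDC25C, at 4.99 to 9.44 FPKM, followed CCNB1 in having KO 1 lowest and KO 3 highest.

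Among the other mitotic kinases, PLK1, which acts in centrosome maturation and cytokinesis, measured 22.44, 13.63 and 15.14 FPKM in vector control 1 to 3, against 12.75, 22.04 and 23.51 in KO 1 to 3. Vector control 1 lay beside KO 2 and 3, and KO 1 beside vector control 2 (log2 fold change 0.16, SE 0.28, adjusted p = 0.803). AURKA, the spindle pole kinase gene, spread from 14.69 FPKM in KO 1 to 37.18 in vector control 1. NEK2, a kinase gene of centrosome separation, measured 28.12, 43.53 and 46.29 FPKM in vector control 1 to 3, against 23.23, 35.30 and 38.17 in KO 1 to 3, with the first library lowest in each group.

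**Figure D4:**
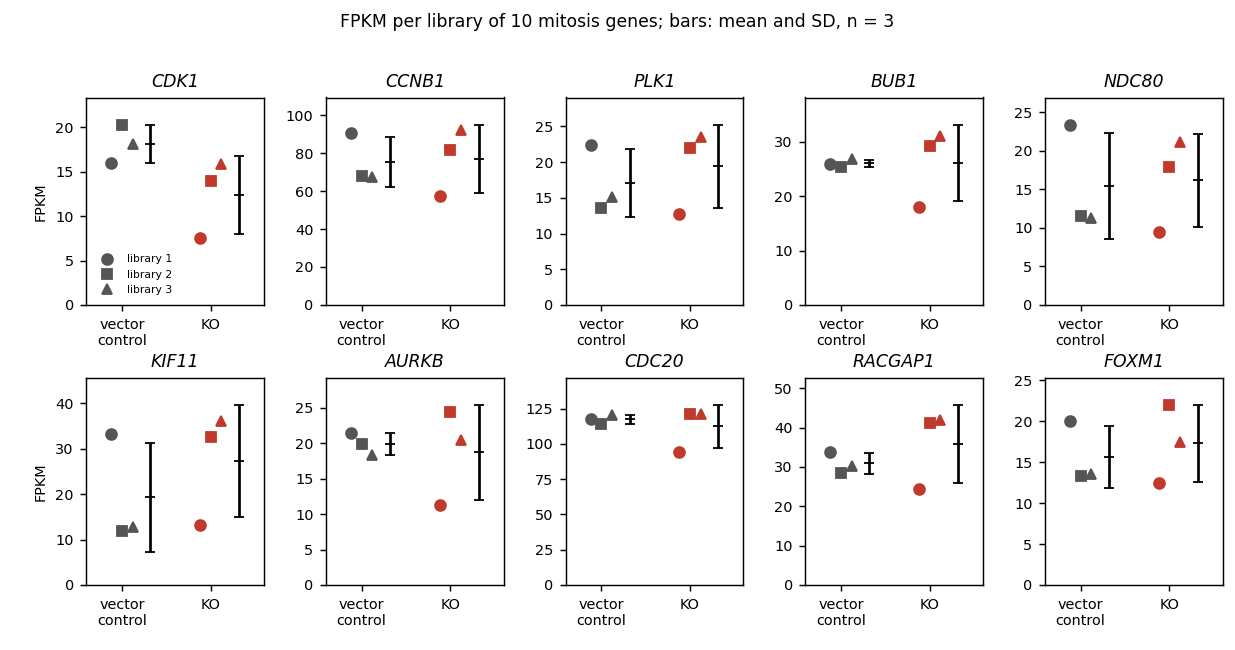
FPKM of 10 members in each library (points; circle, square and triangle are library 1, 2 and 3), with the group mean and SD beside them (n = 3 libraries per group). In each of the 10 genes the KO circle lies below the other KO points, and the vector control circle lies far above its group in KIF11 and NDC80 but within it in BUB1 and CDC20.

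The spindle assembly checkpoint, which holds anaphase back until every kinetochore is attached, included 2 of the members with the lowest fold changes. The checkpoint kinase gene TTK measured 15.01, 14.76 and 16.19 FPKM in vector control 1 to 3, against 7.43, 11.41 and 12.30 in KO 1 to 3. The groups did not overlap, and the vector controls were close together. The log2 fold change of TTK was -0.55 (SE 0.20, adjusted p = 0.235). MAD2L1, which encodes the MAD2 inhibitor of CDC20, measured 19.33, 12.32 and 13.24 FPKM in vector control 1 to 3, against 6.25, 10.07 and 13.88 in KO 1 to 3 (-0.56, SE 0.29, adjusted p = 0.367). KO 3 overlapped the vector controls there. The kinase gene BUB1 measured 25.91, 25.45 and 26.82 FPKM in vector control 1 to 3, against 18.11, 29.26 and 31.12 in KO 1 to 3. Its group means were 26.1 ± 0.697 and 26.2 ± 7.04 FPKM (SD, n = 3), so the KO libraries lay on both sides of a tight control group. BUB3, whose product brings BUB1 to the kinetochore, varied little, from 18.38 FPKM in KO 1 to 25.03 in vector control 1. The row of BUB1B, shared with PAK6, ran from 4.5 to 7.72.

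The kinetochore genes included the member with the widest spread. SPC25, a subunit of the NDC80 complex that binds microtubules, measured 19.88, 6.08 and 5.45 FPKM in vector control 1 to 3, against 4.85, 20.19 and 21.52 in KO 1 to 3. The libraries fell into a high and a low set of 3, each holding libraries of both groups. The log2 fold change was 0.52 with an SE of 0.64 (adjusted p = 0.716). The other 3 subunits of the complex followed to different degrees. NDC80 measured 23.38, 11.53 and 11.31 FPKM in vector control 1 to 3, against 9.43, 17.86 and 21.18 in KO 1 to 3, in the same pair of sets. SPC24 measured 9.13, 6.54 and 8.80 FPKM, against 5.31, 10.89 and 16.07, with vector control 1 and 3 close together. NUF2 measured 10.93, 8.28 and 8.52 FPKM, against 4.38, 7.90 and 7.93, and its groups did not overlap. Subunits of 1 complex thus differed in whether vector control 1 stood apart, by 1.63 on the log2(FPKM + 1) scale from the mean of the other vector controls in SPC25, 0.97 in NDC80, 0.34 in NUF2 and 0.24 in SPC24. The kinetochore motor gene CENPE (4.22 to 9.20 FPKM) and CENPF (13.77 to 27.05 FPKM) had vector control 1 beside KO 2 and 3. The row of the centromeric histone gene CENPA, shared with SLC35F6, varied least of this role, from 13.17 to 18.80.

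Of the motors and microtubule-associated proteins, KIF11, the kinesin that pushes the spindle poles apart, also had a high and a low set of libraries. It measured 33.16, 11.92 and 12.86 FPKM in vector control 1 to 3, against 13.19, 32.60 and 36.13 in KO 1 to 3 (log2 fold change 0.51, SE 0.49, adjusted p = 0.629). The chromokinesin gene KIF4A did likewise, with 36.76, 16.50 and 17.95 FPKM, against 17.19, 35.38 and 35.17. ASPM, a spindle pole protein gene, measured 22.20, 8.98 and 8.48 FPKM in vector control 1 to 3, against 13.09, 18.92 and 24.10 in KO 1 to 3. In ASPM all 3 KO libraries lay above vector control 2 and 3 and overlapped vector control 1 alone (0.56, SE 0.38, adjusted p = 0.488). In the hyaluronan receptor gene HMMR, whose product also binds spindle microtubules, vector control 1 was the highest library at 32.67 FPKM and vector control 2 the lowest at 13.35.

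TPX2, which activates Aurora A on the spindle, measured 147.87, 108.95 and 116.53 FPKM in vector control 1 to 3, against 83.56, 150.61 and 157.24 in KO 1 to 3. Vector control 1 again lay beside KO 2 and 3. KIF20A, a kinesin of the central spindle, measured 37.81, 36.86 and 40.72 FPKM, against 26.21, 52.06 and 53.67. KIF2C, a microtubule-depolymerizing kinesin gene, measured 50.73, 50.14 and 55.92 FPKM, against 35.34, 56.37 and 62.31. In both of these kinesin genes the vector controls were close together and the KO libraries lay on both sides of them. DLGAP5, a spindle assembly factor gene, measured 40.31, 32.73 and 36.12 FPKM in vector control 1 to 3, against 17.88, 28.65 and 31.69 in KO 1 to 3. Its groups did not overlap (-0.50, SE 0.23, adjusted p = 0.316). NUSAP1, which bundles spindle microtubules, broke the pattern among the vector controls. It measured 7.86, 18.95 and 18.95 FPKM in vector control 1 to 3, against 16.69, 18.66 and 19.25 in KO 1 to 3, so vector control 1 was less than any other library. KIF14 ran from 5.95 FPKM in KO 1 to 11.77 in KO 3.

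The chromosomal passenger complex, which corrects wrong attachments and then directs cytokinesis, consists of 4 proteins encoded by members. Its kinase gene AURKB measured 21.41, 19.89 and 18.35 FPKM in vector control 1 to 3, against 11.30, 24.41 and 20.51 in KO 1 to 3 (log2 fold change -0.14, SE 0.27, adjusted p = 0.821). INCENP, the scaffold, measured 10.42, 11.51 and 10.99 FPKM, against 5.33, 8.57 and 9.35, and its groups did not overlap (-0.48, SE 0.21, adjusted p = 0.296). CDCA8, which encodes borealin, measured 16.60, 10.90 and 10.83 FPKM, against 8.81, 19.54 and 22.04. BIRC5, which encodes survivin, ran from 5.61 FPKM in KO 1 to 11.73 in KO 2. In all 4 KO 1 was the lowest library, while KO 2 and 3 lay below every vector control in INCENP and above every vector control in CDCA8.

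Among the genes of mitotic exit, UBE2C had the lowest p of the members. It encodes the ubiquitin-conjugating enzyme of the anaphase-promoting complex. UBE2C measured 55.09, 59.54 and 65.68 FPKM in vector control 1 to 3, against 31.91, 43.53 and 47.35 in KO 1 to 3, with no overlap (log2 fold change -0.56, SE 0.19, unadjusted p = 0.0188, adjusted p = 0.206 with limma). PTTG1, which encodes the separase inhibitor securin, measured 113.36, 118.97 and 124.09 FPKM, against 72.43, 100.25 and 101.84, also without overlap (-0.39, SE 0.17, adjusted p = 0.304). CDC20, the activator of the complex, measured 117.62, 114.28 and 120.72 FPKM, against 94.57, 121.34 and 121.25. In CDC20 KO 1 alone lay below the vector controls and KO 2 and 3 lay just above them. The separase gene ESPL1 went the other way, with 4.93, 2.95 and 2.73 FPKM in vector control 1 to 3, against 2.31, 7.85 and 6.18 in KO 1 to 3 (0.42, SE 0.38, adjusted p = 0.611). CDCA3, whose product takes part in the degradation of WEE1, ran from 1.85 FPKM in KO 1 to 5.21 in KO 3.

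The 5 cytokinesis genes ordered the first libraries in the same way. RACGAP1, part of the centralspindlin complex, measured 33.85, 28.53 and 30.27 FPKM in vector control 1 to 3, against 24.38, 41.19 and 42.03 in KO 1 to 3 (log2 fold change 0.17, SE 0.23, adjusted p = 0.737). Its partner KIF23 ran from 6.43 FPKM in KO 1 to 14.47 in vector control 1, the scaffold gene ANLN from 25.62 in KO 1 to 47.55 in KO 3, and the RhoA activator gene ECT2 from 9.84 in KO 1 to 18.18 in vector control 1. The row of PRC1, a bundler of the central spindle that shares its row with VPS33B, ran from 9.30 in vector control 3 to 15.16 in KO 3. Vector control 1 was the highest vector control in all 5, and KO 1 the lowest KO library.

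The proliferation marker gene MKI67, whose product Ki-67 coats mitotic chromosomes, had one of the widest gaps among the KO libraries. It measured 27.26, 18.30 and 18.33 FPKM in vector control 1 to 3, against 8.66, 24.68 and 25.94 in KO 1 to 3. KO 1 was less than any other library, and the other KO libraries lay between vector control 1 and the other vector controls (log2 fold change -0.22, SE 0.40, adjusted p = 0.815). FOXM1, a transcription factor gene that activates many of these genes in G2, measured 19.96, 13.35 and 13.58 FPKM in vector control 1 to 3, against 12.48, 21.93 and 17.43 in KO 1 to 3 (0.13, SE 0.25, adjusted p = 0.828). KO 1 was the lowest library and KO 2 the highest.

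In all, the groups did not overlap in 7 members, CDK1, DLGAP5, INCENP, NUF2, PTTG1, TTK and UBE2C, each lower in the KO libraries. Of all rows, 23.8% had groups that did not overlap, 8.35% with the KO libraries lower. No member had all KO libraries higher, against 15.4% of all rows. The count depended on 2 libraries. Without KO 1 it was 25, of which 18 were higher and 7 lower (24.8% and 15.1% of all rows), and without vector control 1 it was 16, of which 7 were higher and 9 lower (33.4% and 19.4% of all rows). The median log2 fold change of the members was 0.26 without KO 1 and 0.15 without vector control 1, beside 0.08 and 0.09 for all rows, and between -0.12 and -0.01 without any of the other 4 libraries.

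Other genes of the cell cycle differed between the same libraries. Of 108 tested rows of further mitosis genes, in 5 lists, 0 were called in either direction (1.35% of all rows), with a median log2 fold change of 0.08. The count was 47 with array weights, with or without the robust option, where 41.8% and 41.7% of all rows were called. It was 7 without vector control 1 (13.8% of all rows), 1 without KO 1 (1.26%) and 1 without a filter (1.67%). KO 1 was the lowest KO library in 90 of the 108 and vector control 1 the highest vector control in 82. Of the 32 further kinetochore and centromere genes, KO 1 was lowest in 28 and vector control 1 highest in 31. The lowest fold change there was that of CENPO (-0.39, adjusted p = 0.349) and the highest that of SKA3 (0.61, adjusted p = 0.566). SKA3, which helps kinetochores follow microtubules, measured 18.60, 4.99 and 5.70 FPKM in vector control 1 to 3, against 7.87, 16.54 and 16.97 in KO 1 to 3, the arrangement of SPC25. Among 19 condensin and cohesin genes, NCAPD3 was lowest (-0.49, adjusted p = 0.191) and STAG1 highest (0.58, adjusted p = 0.571).

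Among 32 further spindle and centrosome genes, the microtubule polymerase gene CKAP5 had the lowest fold change (-0.54, adjusted p = 0.138). CKAP5 did not show the gap at KO 1. It measured 75.99, 79.90 and 82.04 FPKM in vector control 1 to 3, against 60.69, 50.51 and 51.55 in KO 1 to 3, without overlap. The highest of that list was the shared row ARHGAP11A;SCG5 (0.83, adjusted p = 0.242). Among 14 tested genes of the anaphase-promoting complex, FBXO5, which encodes its inhibitor EMI1, was lowest (-0.68, adjusted p = 0.236) and the subunit gene CDC27 highest (0.55, adjusted p = 0.381). Among 11 genes of mitotic entry control, CKS2 was lowest (-0.71, adjusted p = 0.299) and CDC14B highest (0.38, adjusted p = 0.206).

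Among the regulators of these promoters 0 were called by limma with equal weights (1.35% of all rows). Of 22 genes of the MuvB, B-MYB, E2F and NF-Y group, 19 had a fold change above 0, with a median of 0.21, beside 59.3% of all rows above 0 and a median of 0.08. With array weights 14 of them were called (41.8% of all rows), and 2 without vector control 1 (13.8% of all rows). MYBL2, which encodes B-MYB, had the lowest, with 56.26, 40.37 and 49.87 FPKM in vector control 1 to 3, against 21.03, 43.12 and 35.97 in KO 1 to 3 (-0.58, adjusted p = 0.326). KO 1 was again far below the rest. The shared row PSENEN;LIN37 had the highest (0.67, adjusted p = 0.116). Of 12 tested CDK inhibitors and G1 cyclins with their kinases, CDKN1C, which encodes the inhibitor p57, was lowest (-1.36, adjusted p = 0.398) and CDKN2C highest (0.39, adjusted p = 0.32). Of these 12, 0 were called with equal weights, 7 with array weights (41.8% of all rows) and 3 without vector control 1 (13.8% of all rows). CDKN1C measured 0.99, 10.08 and 11.14 FPKM in vector control 1 to 3, against 4.33, 0.63 and 0.82 in KO 1 to 3. It was high where SPC25 and KIF11 were low and low where they were high. CDKN1B was arranged like CDKN1C, with 12.42, 28.05 and 29.56 FPKM in vector control 1 to 3, against 22.82, 12.51 and 14.90 in KO 1 to 3. CDKN1A instead had the arrangement of SPC25, with 6.24, 2.74 and 2.21 FPKM, against 1.37, 6.37 and 5.89. The inhibitors of the list therefore did not share 1 direction.

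Genes of S phase divided the libraries in the same way. Of 43 genes of G1/S and DNA replication, 0 were called (1.35% of all rows). The count was 21 with array weights (41.8% of all rows) and 2 without vector control 1 (13.8% of all rows). KO 1 was the lowest KO library in 40 and vector control 1 the highest vector control in 36. The lowest fold change of that list was that of GINS3 (-0.68, adjusted p = 0.0990). The means relative to the control mean were 0.46, -0.26 and -0.20 in vector control 1 to 3 and -0.57, 0.36 and 0.30 in KO 1 to 3. Among 56 tested rows of replication-dependent histones, which are made in S phase, 2 were called higher and 0 lower (0.509% and 0.842% of all rows). The histone count was 1 under pseudocounts of 0.1 and 5, the filter at 5 FPKM, quantile normalization, the robust option alone and without KO 1. In those settings 1.14% to 1.35% of all rows were called. It was 0 without KO 2, KO 3, vector control 2 or vector control 3 (0.26% to 0.405% of all rows). It was 5 without vector control 1 (13.8% of all rows) and 27 with array weights (41.8% of all rows). The means of the list were 0.64, -0.51 and -0.14, and -0.42, 0.35 and 0.41. In both lists, as in the members, vector control 1 and KO 2 and 3 were above 0 and the other 3 libraries below. HIST1H2AC measured 13.26, 9.32 and 9.26 FPKM in vector control 1 to 3, against 30.57, 34.51 and 33.80 in KO 1 to 3 (log2 fold change 1.56, limma adjusted p = 0.0111). HIST1H3F was at most 0.48 FPKM in the vector controls, against 3.03, 1.69 and 5.12 in KO 1 to 3, and passed the filter through the KO libraries alone. The part of the S phase genes in the members' values was not tested.

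**Figure D5:**
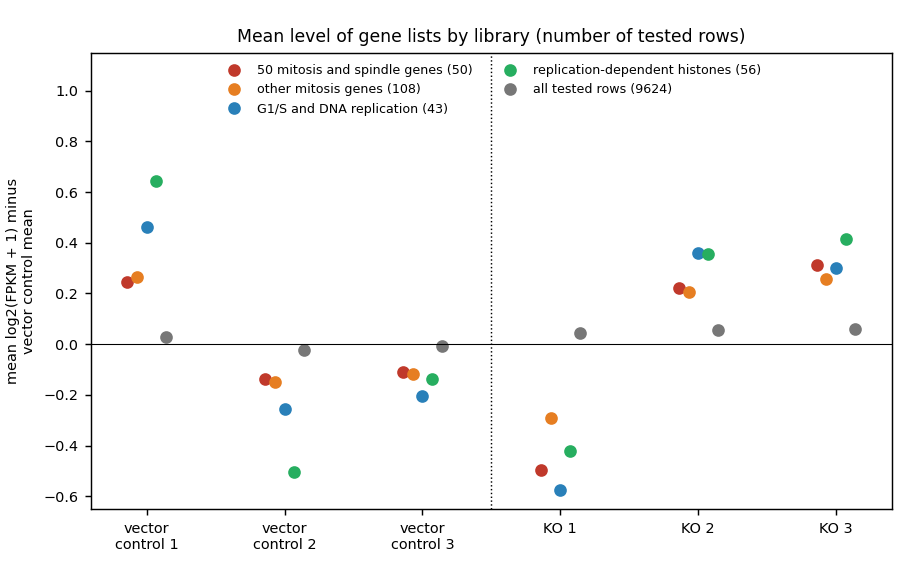
Mean over the tested rows of 5 sets of genes of log2(FPKM + 1) minus the vector control mean (vertical), for each library (horizontal). The 50 members, the other mitosis genes, G1/S genes and histone genes are above 0 in vector control 1, KO 2 and KO 3 and below 0 in the other libraries, while all tested rows stay between -0.02 and 0.06.

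The promoter letters were set beside these within-group differences. KO 1 minus the mean of KO 2 and 3 had a median of -0.74 in the 33 members with CHR letters and of -0.81 in the 9 without. Split by CCAAT, it was -0.80 in the 36 members with it and -0.73 in the 6 without. Vector control 1 differed from the mean of the other vector controls by a median of 0.43 in the members with CHR letters and 0.16 in those without. The CCAAT split went the other way, with 0.29 in the members with CCAAT and 0.52 in those without. Members with both motifs had a median of 0.43 and the rest 0.34. PLK1 and CCNB2, with the letters at the same distance from the start, differed from each other in this measure (0.61 and 0.24), and CCNB1, without the letters in its window, stood at 0.42. The CDC20 promoter held both motifs, and its value was 0.00 to 2 decimals. Members without these CHR letters may hold the CHR in another spelling, so the split is by letters and not by CHR. These are descriptions of few genes, and no difference between them was tested.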

How the data were processed

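The authors deposited FPKM values (fragments scaled to transcript length and library size), 1 column per library and 2 decimals. The submitters' processing notes name HISAT2, FastQC, cutadapt and the build hg19. How FPKM was computed, from which annotation and whether by strand is not given in the sources used here. Whole-read steps were looked for in low values of short genes. None were found (best concentration 0.445, where exact multiples give 1), so depth is unknown and the number of libraries limits precision.

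Libraries were grouped by title and genotype label. limma 3.58.1 (R 4.3.3; lmFit, eBayes with trend) was fitted to log2(FPKM + 1) for the 9624 rows with at least 1 FPKM in at least 3 libraries, without covariates, and tested on simulated data first. Fold changes on that scale understate those of low genes. Members, lists and naming rules were chosen with earlier results of these data known. Per-library values are given for the 10 members with the largest fold changes, the 6 with the widest spread within a group, the 6 with the highest mean, a lead member of each role and, by a choice made after their values were seen, others. Of each other list the called members, or else the highest and lowest, are named. Some genes these rules name are not reported here. Spread within a group is the highest minus the lowest log2(FPKM + 1). Other pseudocounts, filters, scalings and fits, and leaving out each library, were tried. Array weights and the robust option of limma were also fitted apart, a choice made after the data were seen.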

Additional observations from a re-analysis of the deposited data

How the results depend on the processing

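The count of called members was 0 in every alternative tried except those with array weights, where it was 21 with robust limma and 19 without it (a fit added after the data were seen, as was robust limma without weights). The count over all rows, 130, was 4020 with the weights and robust limma, 4015 with the weights alone, 241 without a filter, 59 with a filter at 5 FPKM, and 274 at an adjusted p below 0.1. With each library left out in turn it ranged from 25 (without KO 3) to 1329 (without vector control 1). The count of members without overlap then ranged from 7 to 25, where 27.6% (without vector control 3) to 52.8% (without vector control 1) of all rows did not overlap. The count of members with a wider spread within a group ranged from 33 to 50, for which the share of all rows is not given here. The members' median ranged from -0.12 to 0.26. The cause was not tested.

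With the replicate number as a block, 7 rows, 0 members and 0 histone rows were called. Deviations from the group means correlated at r = -0.37, -0.15 and -0.26 across rows for libraries sharing number 1, 2 and 3. Deviations sum to 0 within a group, so these values are tied to each other. They cannot show whether libraries of the same number were prepared together. KO 1 was the lowest KO library in 49 members as deposited and also in 49 after median scaling and after quantile normalization, while vector control 1 was the highest vector control in 34 under either scaling.

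Fold changes under other settings were followed for 25 of the 50 members, and some of those near 0 turned direction. The other members, among them ANLN and CCNB2 with fold changes near 0, were not followed. After median scaling CCNB1 was at -0.0719, NDC80 at -0.0163 and TPX2 at -0.0680. After quantile normalization BUB1 was at 0.0687 and CDC20 at 0.0397. With array weights AURKB was at 0.11, BUB1 at 0.15, CDC20 at 0.0197, MKI67 at 0.31 and TOP2A at 0.0730. With a library left out, ranges that crossed 0 were those of AURKB (-0.36 to 0.17), BUB1 (-0.17 to 0.20), CCNB1 (-0.12 to 0.22), CDC20 (-0.13 to 0.0453), FOXM1 (-0.0545 to 0.33), MKI67 (-0.48 to 0.26), NDC80 (-0.15 to 0.40), SPC24 (-0.0680 to 0.65), TOP2A (-0.32 to 0.13) and TPX2 (-0.14 to 0.32).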
